A study of Homo sapiens with 6 samples.

Results

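Matrix metalloproteinases, ADAM and ADAMTS proteases and their TIMP inhibitors were followed in U251 cells, an established human glioblastoma line, with and without knockdown of TRAF2. Members were taken by symbol, as every gene named MMP, ADAM or ADAMTS followed by a number, or TIMP followed by 1 digit. This gave 58 of the 23002 genes in the deposited table, made up of 19 MMP, 17 ADAM, 18 ADAMTS and 4 TIMP genes. The cells of the control group (NC, 3 samples) carried a lentivirus with a control hairpin, and those of the knockdown group (KD, 3 samples) carried a lentivirus with a hairpin against TRAF2. Both were stable lines of the same parental cells, and the sources name no TNF-α treatment for these samples. How many clones each line was made from is not given in the sources used here. The comparison asked how mRNA levels of the 4 families differed when TRAF2, an adaptor and ubiquitin ligase of TNF receptor signalling, was lowered.

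These families act on the outside of the cell. MMPs cut collagens, gelatin and other matrix proteins, some as secreted enzymes and some anchored in the membrane. ADAM proteases sit in the membrane, where several act as sheddases that release the outer parts of growth factors, cytokines and adhesion molecules, and others have no protease activity. ADAMTS enzymes are secreted, bind matrix and cut proteoglycans such as versican and aggrecan, or process procollagen. TIMPs are small secreted proteins that block the active site of MMPs and of some ADAM and ADAMTS enzymes. In the brain the matrix is rich in hyaluronan and in proteoglycans of the versican family, and glioma cells use these proteases as they move through it.

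Levels were given as FPKM, fragments per kilobase of transcript scaled to depth, so that genes can be compared with each other. Fold changes are KD over NC on the scale log2(FPKM + 0.1), which understates the change of low genes. A gene was called when limma gave it a Benjamini-Hochberg adjusted p under 0.05 over every gene whose FPKM averaged 0.5 or more in the 6 samples. The libraries held 33999558 to 36823562 reads on genes, as recovered from the FPKM values. Replicates of a group correlated at 0.9928 to 0.9950 across genes, against 0.9794 to 0.9845 between groups. TRAF2 FPKM was 15.1, 18.4 and 15.3 in NC and 3.26, 3.22 and 3.33 in KD, lower in every KD sample (log2 fold change -2.27, limma adjusted p = 1.16e-06). Of 9 astroglial and glioma markers in the table, 8 had a mean FPKM of at least 0.5, with S100B the exception. Summed FPKM of these markers was 1490 to 1560 in NC and 1830 to 1870 in KD, most of it VIM. Single markers went opposite ways, with log2 fold changes of 0.35 for VIM, 1.12 for NES and 1.11 for GFAP but -1.14 for EGFR, all called. The groups of GFAP overlapped. Markers of leukocytes passed 0.5 for CD68 alone, and PTPRC, CSF1R and LYZ did not. Of the epithelial markers KRT8 and KRT18 passed it, while EPCAM and CDH1 did not, and of the neuronal ones SYT1 and MAP2 did. Among endothelial markers KDR alone passed it, and was called higher (log2 fold change 0.22, limma adjusted p = 0.0495). No oligodendroglial marker passed it. Summed epithelial markers were at 17.2 to 19.4 FPKM in NC and 27.9 to 28.8 in KD, and neuronal ones were at 30.6 to 33.9 in NC and 18.1 to 20 in KD. Most of the neuronal sum was SYT1, which was called lower, as was MAP2 (log2 fold changes -0.86 and -0.47). SNAP25 went the other way, at 0.201, 0.383 and 0.307 FPKM in NC and 0.487, 0.703 and 0.604 in KD. Its mean was under 0.5, so it was not tested in the main fit. The part of these marker differences in the results on proteases was not tested.

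The hairpins named in the study's methods against TRAF2 are shown because they define the knockdown, and because a stretch of the first is met again in the 3′UTRs of some members. Which of them was used for the sequenced line is not given in the sources used here. They are written 5′ to 3′ as the target sequence, with bases 10 to 16 of the first in capitals.
sh-TRAF2#1: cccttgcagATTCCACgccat
sh-TRAF2#2: ctggaccaagacaagattgaa

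Of the 58 genes, 25 had a mean FPKM of at least 0.5 and were tested. Of these, 13 were called, 6 higher and 7 lower in KD. This was 52% of the tested members, near the 44.6% of all 11870 tested genes that were called. In the same background 23.7% of genes were called higher and 20.9% lower. None of the 25 members passed an absolute log2 fold change of 1 as well, the threshold the study used, which 1.72% of all tested genes did. The values of NC and KD did not overlap for 18 of the 25 members, against 6583 of all 11870 tested genes (55.5%). This share was larger in the members, and the difference was not tested. The median log2 fold change of the 25 was -0.04, and that of all tested genes was 0.02. Thus the called share of members was near that of all tested genes, and what follows describes which members moved and in which direction.

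The called genes of each family were as follows. All 4 called ADAM genes were lower in KD, and all 4 called ADAMTS genes were higher. MMP genes were split, 2 higher and 2 lower, and 1 TIMP gene was lower. Called in either direction were 57.1% of tested MMPs, 57.1% of ADAMs, 50% of ADAMTSs and 33.3% of TIMPs, against 44.6% of all tested genes. Median log2 fold changes over the tested genes were -0.27 for 7 MMPs, -0.27 for 7 ADAMs, 0.47 for 8 ADAMTSs and 0.01 for 3 TIMPs. Whether the families differ from each other was not tested.

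**Figure D1:**
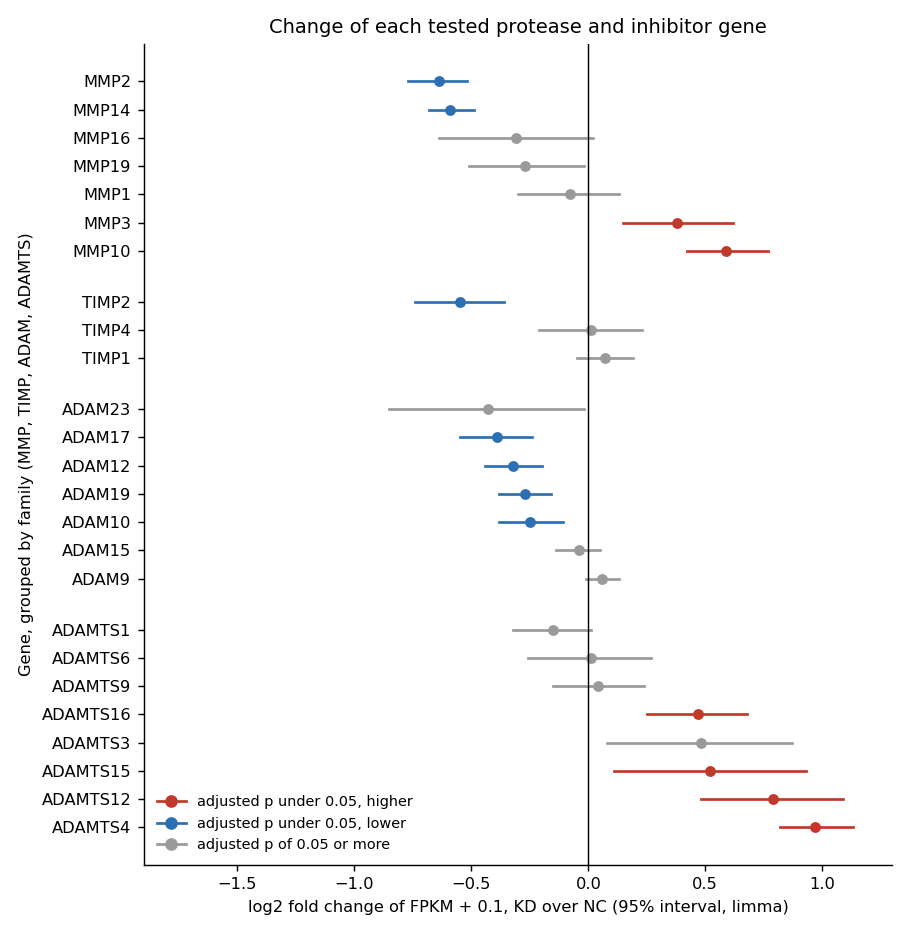
Log2 fold change of FPKM + 0.1, KD over NC, for each of the 25 tested genes (points), with 95% intervals from limma (lines), grouped by family from MMP at the top to ADAMTS at the bottom. Blue genes were called lower, red genes higher and grey genes had an adjusted p of 0.05 or more. The values run from -0.64 for MMP2 to 0.97 for ADAMTS4, with the called ADAM genes left of 0 and the called ADAMTS genes right of it.

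The gelatinase MMP2 and MMP14, its activator, were both lower in KD. MMP14 (MT1-MMP) is anchored in the membrane, cuts collagen directly and activates the secreted MMP2 precursor at the cell surface with the help of TIMP2. MMP14 was the most abundant MMP, with FPKM of 39.5, 39.1 and 39.7 in NC and 25.6, 25.6 and 27.5 in KD. All KD samples lay below all NC samples, lower by 33.4% (log2 fold change -0.59, SE 0.0418, limma adjusted p = 2.8e-05). MMP2 FPKM was 13.2, 14.5 and 14.7 in NC and 9.20, 8.96 and 8.87 in KD. It was lower by a similar amount, 36.3%, again with no overlap (log2 fold change -0.64, SE 0.0545, limma adjusted p = 6.17e-05). TIMP2, which inhibits MMPs and also bridges MMP14 and the MMP2 precursor, was at 42.2, 34.8 and 42.4 FPKM in NC. In KD it was at 26.8, 25.5 and 29.1 FPKM, below every NC sample (log2 fold change -0.55, SE 0.0824, limma adjusted p = 0.00106). NC replicate 2 had the lowest TIMP2 of its group, and without it the log2 fold change was -0.64, the widest of the fits that left out 1 sample.

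The 3 genes of this surface complex were thus lower together, and their ratios overlapped between groups. The MMP14 to TIMP2 ratio of FPKM was 0.935, 1.12 and 0.937 in NC and 0.958, 1.00 and 0.945 in KD. The MMP2 to TIMP2 ratio was 0.359 ± 0.0533 (SD, n = 3) in NC and 0.333 ± 0.0248 (SD, n = 3) in KD. These ratios are descriptions with no test.

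Stromelysins moved the other way. MMP10 and MMP3 are secreted enzymes with broad matrix substrates that can also activate other MMP precursors. MMP10 FPKM was 4.52, 4.62 and 4.15 in NC and 7.32, 6.21 and 6.66 in KD, higher in every KD sample by 51.9% on average (log2 fold change 0.59, SE 0.0765, limma adjusted p = 0.000488). MMP3 FPKM was 3.21, 3.36 and 2.70 in NC and 4.48, 3.71 and 3.99 in KD (log2 fold change 0.38, SE 0.103, limma adjusted p = 0.0161). The MMP3 groups did not overlap, but the gap between the highest NC and the lowest KD sample was small, and KD replicate 1 was the highest. Without KD replicate 1 its adjusted p was 0.0559 and it was no longer called.

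MMP10 and MMP3 lie near each other on chromosome 11 in a row of MMP genes. In the order of the RefSeq annotation of GRCh38.p14 the row runs MMP7, MMP20, MMP27, MMP8, MMP10, MMP1, MMP3, MMP12 and MMP13, and MMP27 was not analysed here. The interstitial collagenase MMP1 lies between the 2 stromelysins and was not called. Its FPKM was 5.91, 5.80 and 4.81 in NC and 5.63, 5.15 and 4.77 in KD, with overlapping groups (log2 fold change -0.08, 95% interval -0.30 to 0.13). The other analysed genes of the row had an FPKM of at most 0.425 in any sample. MMP10 and MMP3 are close in sequence, and 59 stretches of 50 bases, 3.36% of those of MMP10 and 2.88% of those of MMP3 in GENCODE 29 transcripts, occur in both. No other pair of members shared such a stretch. Their FPKM ratio, MMP3 over MMP10, was 0.710, 0.727 and 0.652 in NC and 0.612, 0.597 and 0.599 in KD.

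The other tested MMPs were not called. MMP16 (MT3-MMP), a membrane-anchored enzyme, had FPKM of 1.18, 1.07 and 1.12 in NC and 0.957, 0.986 and 0.735 in KD, a log2 fold change of -0.31 with an adjusted p of 0.109 from limma. MMP19, a secreted enzyme of basement membranes, had FPKM of 4.82, 5.50 and 4.41 in NC and 3.52, 4.37 and 4.33 in KD, a log2 fold change of -0.27 with an adjusted p of 0.0761. For both genes the KD samples lay below the NC samples, by little in the case of MMP19. Of the exonic bases of MMP19, 17.4% lie under TMEM198B on the opposite strand in GENCODE 29, and whether the counting used strand is not given in the sources used here.

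Promoters of an MMP that was higher and one that was lower are shown, from the RefSeq promoter table of GRCh38.p14, as 250 bases before to 50 bases after the start of the gene, 5′ to 3′ on the strand of the gene. MMP10 lies at chr11:102780579-102780878 on the minus strand and MMP14 at chr14:22836335-22836634 on the plus strand. The letters TATAAA, the core of a TATA box, are in capitals and were searched on both strands.
MMP10: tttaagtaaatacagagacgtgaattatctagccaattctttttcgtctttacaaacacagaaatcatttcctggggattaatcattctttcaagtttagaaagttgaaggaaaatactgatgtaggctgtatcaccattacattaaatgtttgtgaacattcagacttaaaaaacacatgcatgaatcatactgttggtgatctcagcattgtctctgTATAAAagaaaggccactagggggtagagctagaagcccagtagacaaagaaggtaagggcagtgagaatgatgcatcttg
MMP14: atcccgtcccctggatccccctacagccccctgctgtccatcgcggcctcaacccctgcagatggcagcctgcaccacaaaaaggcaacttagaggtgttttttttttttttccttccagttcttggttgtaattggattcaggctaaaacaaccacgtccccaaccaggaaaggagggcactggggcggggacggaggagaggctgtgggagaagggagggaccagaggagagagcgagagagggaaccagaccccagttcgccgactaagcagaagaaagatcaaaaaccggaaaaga
The MMP10 window is rich in A and T, with 36.3% G and C, and holds TATAAA starting 31 bases before the start. The MMP14 window has 55% G and C and does not hold these letters. Of the 58 members, 34 had a window in the table, and TATAAA occurred in 7 of them, against 12% of all 27305 windows and 5.55% of the 9785 windows of tested genes. MMP10 was the only tested member among these 7, and the others were ADAM21, ADAMTS10, MMP20, MMP21, MMP7 and MMP8. The letters TGACTCA, the motif bound by AP-1 factors, occurred on either strand in 1 of the 34 windows, that of the untested MMP7, against 4.92% of all windows and 3.22% of those of tested genes.

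Of the inhibitors other than TIMP2, TIMP1 and TIMP4 were not called. TIMP1, a secreted inhibitor of most soluble MMPs, had FPKM of 38.6, 44.6 and 41.0 in NC and 44.4, 42.7 and 43.1 in KD, overlapping (log2 fold change 0.07, 95% interval -0.05 to 0.19). TIMP4 had FPKM of 5.01, 6.09 and 5.59 in NC and 6.09, 4.98 and 5.75 in KD, also overlapping (log2 fold change 0.01, 95% interval -0.21 to 0.23). TIMP1 and TIMP2 were at like levels in NC, with a TIMP1 to TIMP2 ratio of 0.914, 1.28 and 0.967. In KD the ratio was 1.66, 1.67 and 1.48, above every NC sample. TIMP3, which binds to matrix and inhibits ADAM17 and several ADAMTS enzymes as well as MMPs, was too low to be tested. Its FPKM was 0.440, 0.462 and 0.679 in NC and 0.400, 0.387 and 0.527 in KD, which rests on 61 to 116 reads per sample.

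The sheddases ADAM17 and ADAM10 were lower in KD, while ADAM9 and ADAM15 were not called. ADAM17 (TACE) releases TNF from the cell surface, along with TNF receptors and several ligands of EGFR. Its FPKM was 31.7, 28.3 and 33.8 in NC and 24.6, 22.6 and 24.2 in KD, lower by 23.9% with no overlap (log2 fold change -0.39, SE 0.0678, limma adjusted p = 0.00217). ADAM10 sheds Notch, N-cadherin and other surface proteins. It was at 6.17, 6.15 and 6.27 FPKM in NC and 5.39, 4.87 and 5.38 FPKM in KD, the smallest of the called differences (log2 fold change -0.25, SE 0.0606, limma adjusted p = 0.0115). ADAM17 shares 12.3% of its exonic bases with IAH1 on the opposite strand in GENCODE 29, so that reads of the 2 genes cannot be told apart there if the counting ignored strand.

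ADAM12 and ADAM19, the meltrins, are proteases that shed EGFR ligands and neuregulins and cut matrix proteins. ADAM12 FPKM was 9.68, 9.10 and 9.84 in NC and 7.55, 7.73 and 7.54 in KD (log2 fold change -0.32, SE 0.0516, limma adjusted p = 0.00142). ADAM19 FPKM was 23.8, 22.5 and 22.9 in NC and 18.1, 19.3 and 20 in KD (log2 fold change -0.27, SE 0.0493, limma adjusted p = 0.00275). In both genes every KD sample was below every NC sample, by 20.3% and 17.1% on average.

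The remaining tested ADAMs were not called. ADAM9, a sheddase and adhesion protein, had the highest level of all members, with FPKM of 131, 131 and 133 in NC and 138, 135 and 138 in KD. Its groups did not overlap, but the difference was 4.14% and the adjusted p was 0.136 in limma (log2 fold change 0.06). ADAM15, another widely expressed member, had overlapping FPKM of 38.6, 39.4 and 38.0 in NC and 37.9, 38.8 and 36.0 in KD (log2 fold change -0.04, 95% interval -0.14 to 0.05). ADAM23, which has no protease activity and binds integrins and LGI1, was at 0.555, 0.779 and 0.737 FPKM in NC and 0.469, 0.508 and 0.466 FPKM in KD. Its log2 fold change of -0.43 was the largest in the family, but at this low level its 95% interval ran from -0.85 to -0.02 and its adjusted p was 0.083.

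**Figure D2:**
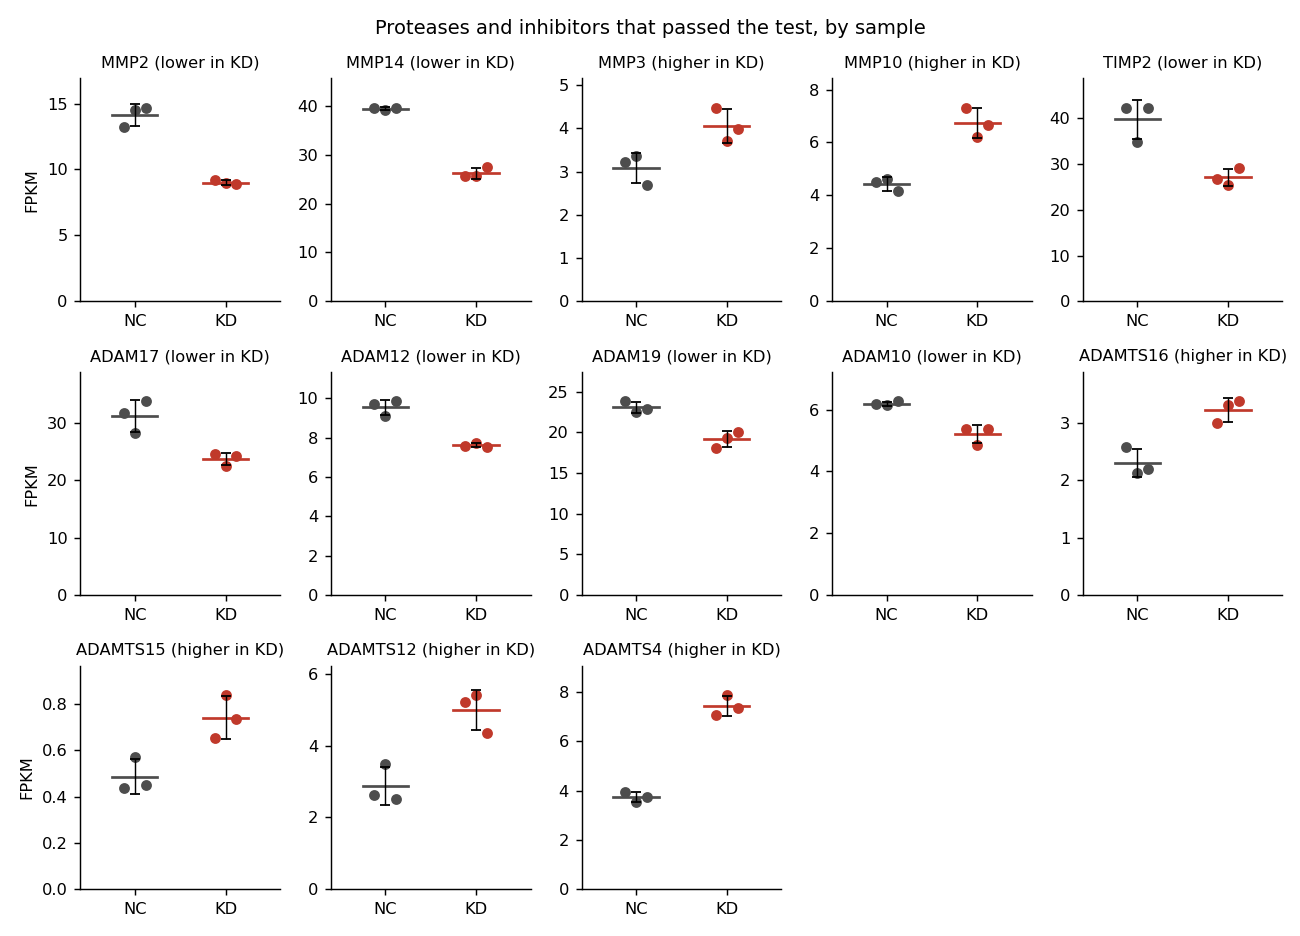
FPKM of the 13 called members by sample, with 3 NC (grey) and 3 KD (red) samples per panel, each with the mean (horizontal line) and SD (vertical bar), on axes that start at 0. The groups do not overlap in any panel, as was so for 5213 of all 5297 called genes. MMP2, MMP14, TIMP2 and 4 ADAM genes are lower in KD while MMP3, MMP10 and 4 ADAMTS genes are higher.

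The ADAMTS genes that were called were all higher in KD. ADAMTS4, an aggrecanase that also cuts versican and brevican, had the largest fold change of all 25 tested members. Its FPKM was 3.95, 3.54 and 3.73 in NC and 7.07, 7.88 and 7.36 in KD, higher by 98.9% (log2 fold change 0.97, SE 0.0678, limma adjusted p = 2.53e-05). Every KD sample was far above the NC range. ADAMTS12, which cuts cartilage oligomeric matrix protein, was at 2.63, 3.48 and 2.51 FPKM in NC and 5.23, 5.42 and 4.36 FPKM in KD (log2 fold change 0.79, SE 0.133, limma adjusted p = 0.00185). NC replicate 2 was the highest of its group, and leaving out 1 sample at a time gave log2 fold changes of ADAMTS12 from 0.70 to 0.93.

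ADAMTS16 and ADAMTS15 were higher by smaller amounts. ADAMTS16, a member with few known substrates, had FPKM of 2.58, 2.13 and 2.20 in NC and 2.99, 3.30 and 3.37 in KD (log2 fold change 0.47, SE 0.0945, limma adjusted p = 0.00471). ADAMTS15, which cuts aggrecan and versican, had FPKM of 0.436, 0.573 and 0.452 in NC and 0.653, 0.840 and 0.735 in KD. The groups of ADAMTS15 did not overlap, but the call was the weakest of the 13 (log2 fold change 0.52, SE 0.179, limma adjusted p = 0.0426). It was lost without NC replicate 1, NC replicate 3 or any 1 of the KD samples, with log2 fold changes of 0.44 to 0.62 over the fits that left out 1 sample. ADAMTS3, a procollagen N-proteinase that also takes part in VEGFC activation, was at 0.680, 0.701 and 0.491 FPKM in NC and 0.859, 1.00 and 0.845 FPKM in KD. It did not overlap between groups either, and its adjusted p of 0.0511 lay just past the threshold (log2 fold change 0.48).

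The most abundant ADAMTS genes were not called. ADAMTS1, which cuts versican and aggrecan, was at 42.8, 44.5 and 39.6 FPKM in NC and 42.3, 34.9 and 37.0 FPKM in KD (log2 fold change -0.15, limma adjusted p = 0.121). ADAMTS9, which cuts versican as well, was at 16.6, 19.8 and 15.9 FPKM in NC and 18, 19 and 16.8 FPKM in KD (log2 fold change 0.04, 95% interval -0.15 to 0.24). Both overlapped between groups. In the fit after quantile normalization and in the fit without KD replicate 1, ADAMTS1 was called lower. ADAMTS6 was at 2.20, 2.28 and 1.72 FPKM in NC and 2.14, 2.08 and 1.98 FPKM in KD, overlapping as well (log2 fold change 0.01, 95% interval -0.26 to 0.27).

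Promoter windows of the called sheddase ADAM17 and of ADAMTS12 are shown as above, one from ADAM and one from ADAMTS, whose called genes each lay on one side. ADAM17 lies at chr2:9555781-9556080 and ADAMTS12 at chr5:33891941-33892240, both on the minus strand.
ADAM17: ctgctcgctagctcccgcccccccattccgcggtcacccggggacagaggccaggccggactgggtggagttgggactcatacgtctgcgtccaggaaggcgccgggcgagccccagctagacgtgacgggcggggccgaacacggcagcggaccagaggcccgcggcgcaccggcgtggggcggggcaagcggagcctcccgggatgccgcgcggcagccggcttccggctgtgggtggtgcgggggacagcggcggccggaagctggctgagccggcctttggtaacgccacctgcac
ADAMTS12: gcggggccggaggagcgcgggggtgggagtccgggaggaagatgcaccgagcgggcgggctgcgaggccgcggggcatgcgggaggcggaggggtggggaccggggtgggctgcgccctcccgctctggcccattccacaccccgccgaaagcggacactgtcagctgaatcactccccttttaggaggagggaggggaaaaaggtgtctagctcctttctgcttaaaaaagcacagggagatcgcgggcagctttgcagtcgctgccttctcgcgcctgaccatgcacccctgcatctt
Both windows are rich in G and C, 74.7% for ADAM17 and 67% for ADAMTS12, and neither holds TATAAA or TGACTCA. Over the tested members with a window, from MMP10 at 36.3% to ADAM15 at 79.3%, MMP10 had the lowest share of G and C.

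The 7 bases in capitals in the first hairpin, ATTCCAC, were looked up in the longest annotated 3′UTR of each gene in GENCODE 29, since a hairpin's product can also pair with other transcripts. They were chosen because earlier results of these data had pointed to them, so the shares are a description. Whether the longest annotated form is the one present in these cells was not tested. They occurred in 18.6% of 2382 genes called lower, in 10.7% of 5853 genes not called and in 6.84% of 2587 genes called higher. The median length of these 3′UTRs ran the same way, at 2055 bases in lower genes, 1686 in genes not called and 1332 in higher genes, and its part in these shares was not tested. Among the 25 tested members they occurred in 3, namely 1 of the 7 lower, 1 of the 6 higher and 1 of the 12 not called. These were ADAM10, ADAMTS4 and ADAMTS6, and each site is shown 5′ to 3′ with 11 bases on either side and the match in capitals.
ADAM10: ataaatcactaATTCCACctgtaagaaag
ADAMTS4: acattgtaaacATTCCACagcatgtggaa
ADAMTS6, first site: tatttttcttcATTCCACttaatttcctt
ADAMTS6, second site: gatggagtgaaATTCCACgccaggcacag
The ADAM10 site is at bases 4995 to 5001 of a 3′UTR of 8740 bases, that of ADAMTS4 at 6586 to 6592 of 6830, and those of ADAMTS6 at 3208 to 3214 and 5653 to 5659 of 5723. The second ADAMTS6 site also matches the first hairpin in the bases gcca that follow the capitals. The other sites shown differ from the hairpin at the base after the capitals. MMP2, MMP14, TIMP2, ADAM12, ADAM17 and ADAM19, the other 6 lower genes, did not hold these letters. The part of such matches in the differences was not tested.

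The levels were also summed over each family. The MMP sum was 73.8, 75.3 and 72.8 FPKM in NC and 57.8, 56.0 and 58.2 FPKM in KD, a difference of -22.5%. MMP14 made up 53.3% of it in NC and 45.8% in KD. The TIMP sum was 86.3, 85.9 and 89.6 FPKM in NC and 77.6, 73.6 and 78.5 FPKM in KD, a difference of -12.2%. The MMP to TIMP ratio was 0.855, 0.876 and 0.813 in NC and 0.744, 0.761 and 0.741 in KD, so that every KD sample was lower.

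The ADAM sum differed by -4.19%, from 242 ± 3.27 (SD, n = 3) in NC to 232 ± 1.89 (SD, n = 3) FPKM in KD, and ADAM9 held 54.4% of it in NC and 59.1% in KD. Without ADAM9 it was 112, 107 and 113 FPKM in NC and 95.1, 94.9 and 94.8 FPKM in KD, or -14.1%. The ADAMTS sum overlapped between groups, at 72.4, 77.5 and 67.2 FPKM in NC and 79.7, 74.7 and 72.8 FPKM in KD. ADAMTS1 and ADAMTS9 held 82.5% of it in NC and 73.9% in KD. Without these 2 genes the sum was 13.0, 13.2 and 11.7 FPKM in NC and 19.3, 20.8 and 18.9 FPKM in KD, higher by 56%. The sums without these genes were chosen after the values were seen, and none of the sums was tested.

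**Figure D3:**
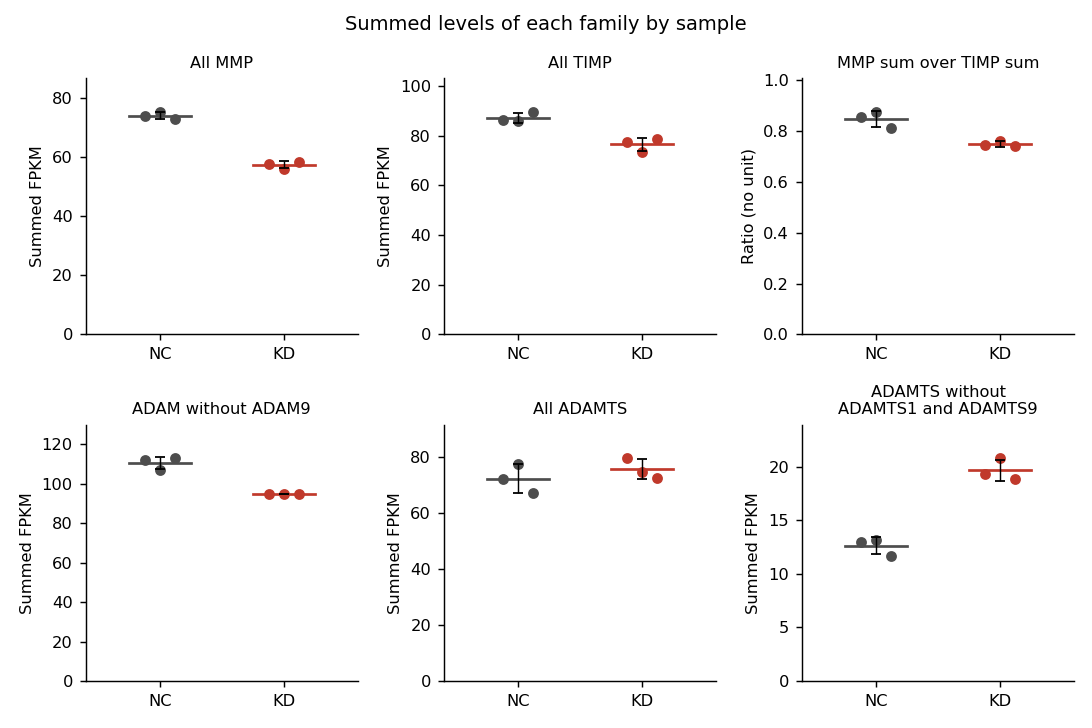
Summed FPKM of each family by sample (points), with the mean (line) and SD (bar) of 3 NC and 3 KD samples, and the ratio of the MMP to the TIMP sum, on axes that start at 0. The MMP, TIMP and ADAM (without ADAM9) sums and the ratio were lower in every KD sample, the full ADAMTS sum overlapped, and the ADAMTS sum without ADAMTS1 and ADAMTS9 was higher in every KD sample.

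The other 33 members were under a mean FPKM of 0.5. Of these, 9 had an FPKM of at least 0.1 in every sample of a group. ADAMTS10, which binds fibrillin, had FPKM of 0.317, 0.254 and 0.363 in NC and 0.172, 0.168 and 0.133 in KD. These values rest on 51, 41 and 61 reads in NC and 27, 26 and 21 reads in KD, and the groups did not overlap. The glycolipid-anchored MMP17 had FPKM of 0.623, 0.324 and 0.614 in NC and 0.268, 0.309 and 0.339 in KD, overlapping through NC replicate 2. For ADAM22, a receptor of LGI1, the range was 0.336 to 0.387 FPKM in NC and 0.335 to 0.460 FPKM in KD. ADAM32, ADAM8, MMP7, the membrane-type MMP15 and MMP24 and TIMP3 also overlapped between groups.

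The remaining 24 reached at most 0.126 FPKM and 45 reads in any sample, and 12 of them had 10 reads or fewer over the 6 samples together. MMP9, the other gelatinase, was one of these 24 and is named although its values were seen first. It had 1, 1 and 1 reads in NC and 1, 2 and 2 reads in KD, too few to show a difference. On the reads recovered from the FPKM values, limma-voom tested 36 members with a mean of at least 10 reads and called 17, among them all 13 above, with 40.8% of all 14130 genes called. The 4 added were ADAM23, ADAMTS3, MMP16 and ADAMTS10. The log2 fold change of ADAMTS10 was -0.97 with an adjusted p of 0.0189 in that fit.

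Genes that act with these families were grouped into 7 further lists. In the plasminogen system, which activates several MMP precursors, 4 of 11 tested genes were higher and 4 lower, with a median log2 fold change of 0.03. This was 72.7% of the list, against 44.6% of all tested genes. PLAU, the urokinase that converts plasminogen to plasmin, was at 525, 503 and 497 FPKM in NC and 310, 313 and 352 FPKM in KD (log2 fold change -0.65, SE 0.0505, limma adjusted p = 4.12e-05). Its receptor PLAUR moved the other way, from 35.2, 36.3 and 33.8 FPKM in NC to 45.1, 40.7 and 44.3 FPKM in KD (log2 fold change 0.30, limma adjusted p = 0.00168). The plasminogen receptors S100A10 and PLGRKT were also opposite, with log2 fold changes of 0.23 and -0.40.

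Of 15 tested activators, chaperones and scaffolds of sheddases and MMPs, 2 were higher and 4 lower, which was 40% of the list and near the 44.6% of all genes, with a median log2 fold change of -0.07. The tetraspanins TSPAN5 and TSPAN17, which carry ADAM10 to the cell surface, were lower. TSPAN5 FPKM was 33.8, 33.5 and 33.0 in NC and 25.5, 24.2 and 24.1 in KD (log2 fold change -0.44, limma adjusted p = 8.83e-05), and that of TSPAN17 had a log2 fold change of -0.28. Of the other TSPAN genes of the list, TSPAN15 was called lower, at -0.54. TSPAN14 and TSPAN10 were not called, at -0.06 and 0.49, and TSPAN33 was not tested. FRMD8, which stabilises the iRhom partners of ADAM17, was at 8.76, 8.78 and 8.80 FPKM in NC and 6.45, 6.89 and 6.98 FPKM in KD (log2 fold change -0.37, limma adjusted p = 0.000757). PACSIN2, a membrane-bending protein of endocytosis, was higher, with a log2 fold change of 0.34.

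Of the other inhibitors and clearance receptors, 1 of 4 tested genes was called, 25% against 44.6% of all genes. SPOCK1, a proteoglycan of the testican family, fell from 11, 11.6 and 11.2 FPKM in NC to 8.72, 8.05 and 7.76 FPKM in KD (log2 fold change -0.46, limma adjusted p = 0.000412). RECK, a membrane-anchored MMP inhibitor, SERPINH1, a collagen chaperone, and the scavenging receptor LRP1 had log2 fold changes of -0.18, -0.22 and -0.24 and were not called. The median of the list was -0.23.

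Of 14 tested cathepsins and cystatins, 1 was higher and 5 lower, with a median log2 fold change of -0.15. The called share of 42.9% was near the 44.6% of all tested genes. CTSH, a lysosomal aminopeptidase, was at 2.55, 2.51 and 2.09 FPKM in NC and 1.34, 1.33 and 1.36 FPKM in KD (log2 fold change -0.78, limma adjusted p = 0.000532). The aspartic protease CTSD, the carboxypeptidase CTSA and the secreted cystatin CST3 had log2 fold changes of -0.32, -0.27 and -0.42. Of 7 tested tolloid and other extracellular proteases, 4 were lower, with a median of -0.16. This was 57.1% of the list, while 20.9% of all tested genes were called lower and 44.6% in either direction. HTRA1, a secreted serine protease, was at 18.1, 15.8 and 17.1 FPKM in NC and 10.6, 10.7 and 11.8 FPKM in KD (log2 fold change -0.62, limma adjusted p = 0.000189). PCOLCE2, a procollagen proteinase enhancer, BMP1, a procollagen C-proteinase, and the serine protease PRSS23 had smaller log2 fold changes of -0.34, -0.16 and -0.16. These 3 calls were weak. That of PCOLCE2 was lost in limma-voom (adjusted p = 0.111), without a filter, and without NC replicate 1, NC replicate 2, KD replicate 2 or KD replicate 3. PRSS23 lost its call without the same samples, without a filter and with eBayes without a trend, and BMP1 without NC replicate 1, NC replicate 2, KD replicate 1 or KD replicate 3. The list then held 1 to 4 genes called lower over the fits that left out 1 sample.

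In the lists nearest to the ADAMTS enzymes only 7 genes were tested. Of 4 tested ADAMTS-like and related matrix proteins, 25% were called against 44.6% of all tested genes. THSD1 was higher with a log2 fold change of 0.35, while ADAMTSL1, THSD4 and ADAMTSL5 were not called, at -0.19, -0.17 and 0.10, and the median was -0.04. Of 3 tested hyalectans and other substrates, 1 was higher and 1 lower, which was 66.7% of this short list against 44.6% of all tested genes. VCAN, the versican gene, was at 20.3, 20.1 and 20.2 FPKM in NC and 23.0, 21.5 and 22.8 FPKM in KD (log2 fold change 0.15, limma adjusted p = 0.0231). FBLN1, a fibulin that binds versican, was lower with a log2 fold change of -0.24, and the fibronectin gene FN1 was not called at 0.12. The median of that list was 0.12. The call of THSD1 was lost without NC replicate 1 or KD replicate 1, at log2 fold changes of 0.30 and 0.29, and that of VCAN without NC replicate 1, NC replicate 3, KD replicate 1 or KD replicate 3, at 0.13 to 0.15.

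**Figure D4:**
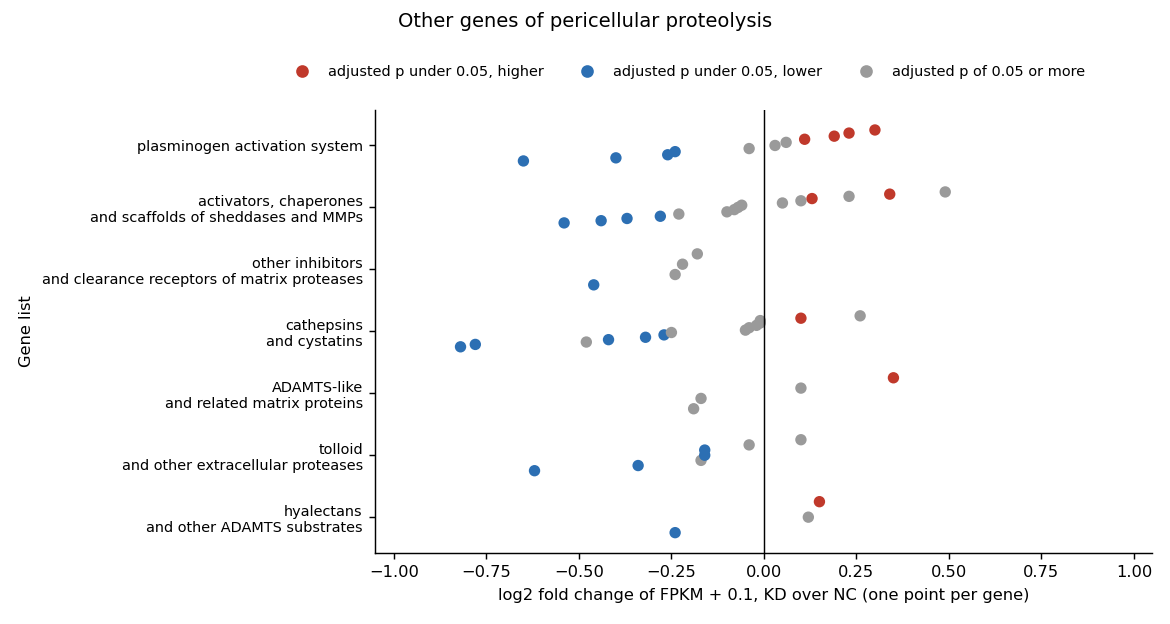
Log2 fold change of FPKM + 0.1, KD over NC, for each tested gene (points) of the 7 further lists (rows), red where called higher, blue where called lower and grey otherwise. The genes lie between -0.82 and 0.49, and most lists hold genes on both sides of 0.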

How the data were processed

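RNA of U251 NC and KD cells (3 samples each) was extracted with TRIzol, made into libraries with a VAHTS Universal V6 kit and sequenced by OE Biotech. The authors deposited 1 table of FPKM values for 23002 genes. The submitters' processing notes name HISAT2, HTSeq, R 3.2.0 and DESeq2, with no role given. Neither the genome build nor whether counting was strand-specific is given in the sources used here. Samples were grouped by their titles. The labels call the samples biological replicates and say no more, so p-values set the group difference against the spread between samples of a group. NC and KD are separate stable lines. Differences between the lines from their making or selection cannot be told apart from those of TRAF2 knockdown. Chi-square per gene between replicates of a group was 5.79 to 14.9, above counting noise.

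The analysis used log2(FPKM + 0.1) of the deposited FPKM values. KD was compared with NC by limma 3.58.1 in R 4.3.3 (lmFit, eBayes with a trend, two-sided) on the 11870 genes whose mean FPKM reached 0.5, with Benjamini-Hochberg adjustment over all of them. Read counts were recovered as the smallest whole numbers in proportion to each gene's FPKM, 33999558 to 36823562 per sample, and used for depth and for limma-voom. They can be below the true counts, as for a gene with reads in a single sample, which was given 1 read. Exact permutation tests over the 20 assignments of samples gave 0.1 for each called member, the smallest p this design allows. The fit was tested on simulated data. Members, lists, the fold threshold and the 7-base match were chosen with earlier results of these data known. Named are TRAF2, all tested members, untested members with an FPKM of at least 0.1 in every sample of a group, and the 4 genes of each further list with the smallest adjusted p. The other TSPAN genes of the activator list are named beside TSPAN5 and TSPAN17. Alternatives were pseudocounts of 1 and 0.01, no filter, a filter at a mean FPKM of 1, rescaling to TPM, quantile normalization, a replicate block, eBayes without a trend, limma-voom and leaving out each sample. Overlaps, shared stretches and 3′UTRs came from GENCODE 29, promoters and gene order from RefSeq. Python 3.11.15 was used.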

Additional observations from a re-analysis of the deposited data

How the results depend on the processing

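Over 372 comparisons of a member with an alternative, 343 kept direction and side of the threshold, 9 lost the call, 10 gained it and 10 changed sign, the last all in genes not called. The calls lost were of ADAMTS15 (no filter, quantile normalization, and without NC replicate 1, NC replicate 3 or each KD sample) and of MMP3 (no filter, and without KD replicate 1). ADAMTS3 gained a call with a pseudocount of 1, eBayes without a trend and limma-voom. ADAM23 gained a call with eBayes without a trend, limma-voom and without NC replicate 1. MMP16 gained a call in limma-voom, and MMP19 without NC replicate 3. ADAMTS1 was called lower under quantile normalization and without KD replicate 1. ADAMTS10, under the main filter, was called lower without a filter and in limma-voom. With a mean FPKM of at least 1, 12 of 22 tested members were called, with 48% of all 10774 tested genes called. ADAMTS15 was not tested in that fit. The signs changed for ADAM9 (-0.02 under quantile normalization), ADAMTS6 (-0.0052 under TPM and -0.009 under quantile normalization, and -0.11 to 0.08 leaving out 1 sample), ADAMTS9 (-0.02 to 0.14 leaving out 1 sample) and TIMP4 (-0.0028 under TPM, and -0.06 to 0.09 leaving out 1 sample). In the further lists the sign of ADAMTSL5 changed (-0.03 to 0.19). The cause was not tested.

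Leaving out 1 sample gave 4 to 6 members higher and 7 to 8 lower. In these fits 36.1% to 42.6% of all tested genes were called, against 44.6% with all 6 samples. ADAMTS4 passed an absolute log2 fold change of 1 without NC replicate 1 or KD replicate 1, so that count was 0 to 1. In the further lists, leaving out 1 sample gave 2 to 4 higher and 2 to 4 lower plasminogen genes, 2 to 4 higher activators, 1 to 2 lower inhibitors, 0 to 1 higher cathepsins, 0 to 1 higher ADAMTS-like genes, 1 to 4 lower tolloid genes and 0 to 1 higher hyalectans. Without a filter, 2 plasminogen and 2 tolloid genes were lower. With a mean FPKM of at least 1, TPM, quantile normalization, eBayes without a trend or limma-voom, 2 inhibitors were lower. The cathepsin higher count was 0 under quantile normalization and eBayes without a trend. Under limma-voom 1 ADAMTS-like gene was lower and 2 hyalectans higher.

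NC and KD samples share replicate numbers. Their deviations from the group means correlated at -0.0812, 0.0722 and 0.0728 for numbers 1, 2 and 3, so they were not treated as pairs. With the replicate block 13 members were called, the same 13, 6 higher and 7 lower, and 45.9% of all genes. The 33 members under the filter rest on few reads, and a difference in most of them was not detectable at this depth.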
